A study of Caenorhabditis elegans with 4 samples.

Results

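Chromosome IV of *Caenorhabditis elegans* carried 856 of the 5364 regions at which RNA polymerase II was called in late embryos. These are all the regions that the deposited list places on IV, and the other 4508 regions, on I, II, III, V and X, serve as background. Chromatin immunoprecipitation followed by sequencing (ChIP-seq) was done on the wild-type strain N2 (the DR subclone of DB original, with the Tc1 transposon pattern I), in hermaphrodite cultures. Embryos had developed for 4.5 hours beyond the early embryo stage at 20 °C. Both groups share this genotype and stage: 2 ChIP libraries, made with a mouse monoclonal antibody against the heptapeptide repeat of the largest polymerase subunit, and 2 input libraries of chromatin that was not immunoprecipitated. Whole embryos were used, so all cell types are averaged, and regions occupied in few cells cannot be told apart from regions occupied weakly in many.

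RNA polymerase II transcribes the protein-coding genes of the nucleus and many small RNA genes. Its largest subunit, encoded by ama-1, ends in the long heptapeptide repeat that the antibody recognises, and the polymerase can be caught at promoters, along gene bodies and beyond gene ends. Nematode autosomes have a gene-rich centre with little recombination between a pair of arms richer in repeats, and many of their genes sit close together in operons. Chromosome IV is also where this animal keeps nearly all of its piRNA genes, which encode the small RNAs that guard the germ line against transposons. The RefSeq gene table (assembly WBcel235) places 14714 of 15363 piRNA genes on IV, or 95.8%, against 3281 of 19971 protein-coding genes, or 16.4%. The regions are on another build, WormBase WS180, and were assigned to no gene.

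The list is the only measurement used here: each row has a start, an end and a q-value, the p-value of ChIP against input that the authors corrected for multiple testing. Values of single libraries are not part of it, since it joins the replicates, and library depth is unknown. There is no replicate spread, so no difference below was tested between libraries or between chromosomes. All values are descriptions of this list.

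By most measures chromosome IV lay between the densely and the thinly occupied chromosomes. It held 49.0 called regions per Mb over a span of 17.5 Mb, rank 4 of 6, where I had the highest density (92.5 per Mb) and X the lowest (19.7 per Mb). The regions covered 684 kb, or 3.92% of the span, almost the same as the 3.92% of the other 5 chromosomes together. IV carried 15.96% of the list on 17.5% of the spanned sequence. Set against protein-coding genes, IV had 26.1 regions per 100 genes, near the 28.1 of II and above the 16.3 of V, and 208 covered bases per gene, against 197 on II and 143 on V.

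The called regions were not spread evenly along IV. Cut into 3 parts of equal length (5.82 Mb), the chromosome had 327 regions in the left part, 314 in the middle part and 215 in the right part, which are 56.2, 53.9 and 36.9 per Mb. The right part therefore held 25.1% of the regions. The other chromosomes had no right-hand deficit of this size by number: the density of the right part over the mean of the left and middle parts was 0.671 on IV and between 0.925 and 1.17 on the other 5. A thin outer part was also seen on the left of II, with 49.1 regions per Mb against 71.1 and 70.1 in its middle and right parts. That part had a ratio of 0.695 by number and 0.657 by covered bases, where the right part of IV had 0.851 by covered bases. Next by number was the left part of V, with 32.4 regions per Mb against 47.1 and 37.4 in its middle and right parts. Its ratio was 0.767 by number and 0.845 by covered bases. The contrast on IV was known from earlier results of these data, and no ratio was tested.

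Counted in bases, the right part was no thinner than the left. Regions covered 203 kb of the left part (3.49%), 277 kb of the middle part (4.76%) and 204 kb of the right part (3.51%). The left part had 1.52 times as many regions as the right but 0.994 times as many covered bases. The excess of the left part lay in short regions. There were 203 regions under 500 bp on the left and 100 on the right, a ratio of 2.03, but 124 and 115 regions of 500 bp or more, a ratio of 1.08. By covered bases the density of the right part over the mean of the other parts was 0.851 on IV, and it was lower on V (0.766) and X (0.840).

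**Figure D1:**
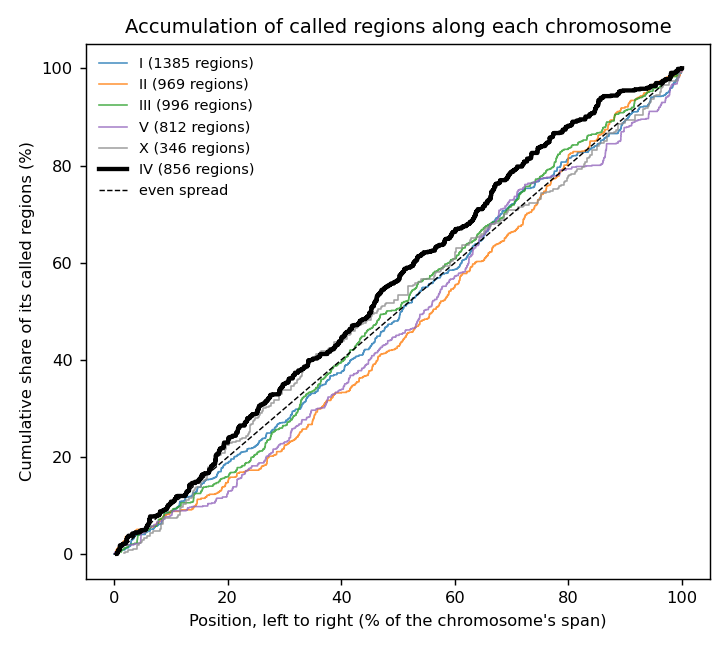
Cumulative share of called regions (vertical axis, %) against position along each chromosome (horizontal axis, % of its span), with IV as the thick black line and an even spread dashed. IV runs above the dashed line over most of its length and flattens near its right end, where the last 14.1% of the span added 6.07% of the regions.

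In bins of 1 Mb, the deficit on the right was concentrated near the end of the chromosome. Each of the 15 bins up to 15 Mb held between 40 and 72 regions, with a median of 53. The fullest were the bins from 11 to 12 Mb, with 72 regions, and from 3 to 4 Mb, with 71. The next 2 bins, from 15 to 16 and from 16 to 17 Mb, held 14 and 19 regions, both below the lowest bin before them. The last, shorter bin held 19 regions in its 0.462 Mb, a density of 41.2 per Mb that lies again within the range of the bins up to 15 Mb.

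**Figure D2:**
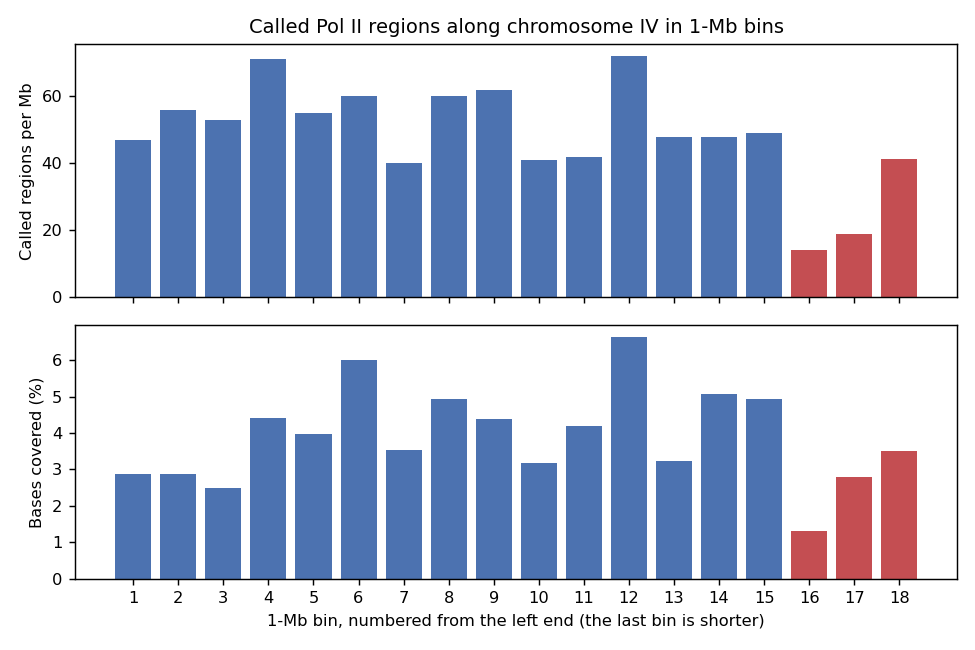
Called regions per Mb (upper panel) and percent of bases covered (lower panel) in 1-Mb bins of chromosome IV, numbered from the left end, with bins beyond 15 Mb in red. Bins 16 and 17 have 14 and 19 regions, and bin 12 is highest in both panels, with 72 regions and 6.62% of its bases covered.

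Beyond 15 Mb there were 52 regions, 21.1 per Mb, against 53.6 per Mb before it, a ratio of 0.394. They were 6.07% of the regions of IV on 14.1% of its span. Within the right part, the 3.36 Mb before this point held 163 regions, or 48.5 per Mb, which is 0.905 times the density up to 15 Mb. The boundary was chosen after the bins were seen. By covered bases the stretch was less depleted: 2.32% of it was covered, against 4.18% before it, a ratio of 0.555.

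The regions beyond 15 Mb were fewer in every width class, and least so among broad ones. Regions under 500 bp numbered 28.7 per Mb before 15 Mb and 8.94 per Mb beyond it, and those of 500 to below 2000 bp numbered 20.8 and 8.94 per Mb. For regions of 2000 bp or more the densities were 4.13 and 3.25 per Mb, and the latter rests on 8 regions. Their median width was 578 bp against 466 bp before 15 Mb. Of the 52, 37 (71.2%) passed the stricter q-value limit of 0.001, against 505 of 804 (62.8%) before 15 Mb. The whole list had 65.5%, and the difference was not tested.

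Some of the chromosome's most significant regions lay in this sparse stretch. An 11072 bp region (16482578 to 16493649, coordinates on WS180 throughout) was the second widest of IV and had a q-value of 2.33e-161. It followed a stretch of 82436 bp without a call and was separated by 310 bp from a 1133 bp region on its right. Further right, 5121 bp were called at 17276915 to 17282035 (q-value 1.15e-114). Regions of 2271 bp (16380293 to 16382563, q-value 1.73e-60) and 2374 bp (16397768 to 16400141, q-value 2.69e-44) stood 15204 bp apart. The final 0.462 Mb held a cluster of 11 of the calls between 17088546 and 17126364, with widths from 33 to 1290 bp.

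The right end of IV was compared with stretches of the same length, 2.46 Mb, at all 12 chromosome ends. Its density relative to the rest of its own chromosome, 0.394, was the lowest of the 12, and the next lowest was the left end of II at 0.694. In absolute terms the left end of X was sparser, with 18.3 regions per Mb, and the right end of X was close, with 21.5. The left end of IV, at 51.2 per Mb, was 1.05 times as dense as the rest, but 2.70% of its bases were covered, a covered-base ratio of 0.656. By covered bases the right end of IV was again lowest of the 12, at 0.555, but followed closely by the left end of X at 0.596. The stretch length was set on IV, so this ranking favours IV, and no test was made.

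**Figure D3:**
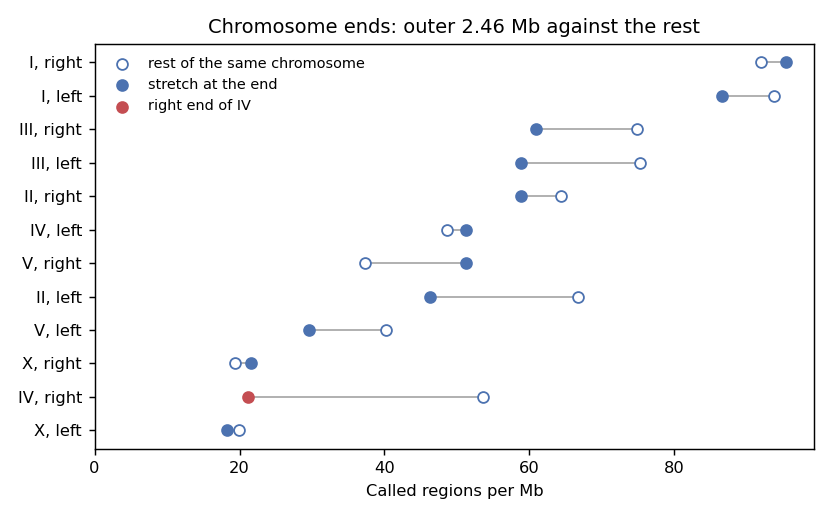
Called regions per Mb (horizontal axis) in the outer 2.46 Mb of each chromosome end (filled) and in the rest of the same chromosome (open), joined by a line, ordered by the density of the end. The right end of IV (red) has 21.1 regions per Mb against 53.6 in the rest, the widest relative separation of the 12.

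Sparse stretches also occurred inside other chromosomes. Sliding a 2-Mb window in steps of 100 kb, the emptiest position on IV was 15 to 17 Mb, with 33 regions or 16.5 per Mb, which is 0.337 of the chromosome's mean. Chromosome V had an emptier stretch, from 15.8 to 17.8 Mb, with 10.5 regions per Mb, 0.270 of its mean. The emptiest stretches of I, II and III had 0.708, 0.552 and 0.733 of their chromosome's mean, and that of X had 0.636.

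The regions of IV were mostly short, with a few broad ones that held much of the covered sequence. Their widths had a median of 472 bp, quartiles of 257 and 878 bp and extremes of 1 and 12568 bp. The regions of the other 5 chromosomes had a median of 424 bp and quartiles of 208 and 800 bp. In median width IV ranked 3 of 6, below X (674 bp) and V (530.5 bp). Regions of 2000 bp or more numbered 70 on IV, or 8.18%, where the whole list had 6.94%, and they held 36.9% of the covered bases. Regions under 100 bp numbered 73, or 8.53%, where the whole list had 9.71%. Of these, 19 were under 10 bp and 3 were a single base long.

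Width differed between the parts along the chromosome. The median was 387 bp in the left part, 528.5 bp in the middle and 528 bp in the right. Of the 73 regions under 100 bp, 45 were in the left part and 14 in each of the others. Of the 70 regions of 2000 bp or more, 14 were on the left, 28 in the middle and 28 on the right, so the share of broad regions went from 4.28% to 8.92% and 13.02%. The lowest median of any 1-Mb bin, 296.5 bp, was between 1 and 2 Mb, and the highest, 660.5 bp, between 6 and 7 Mb. On III the left part was also narrower than the right, by medians of 305 and 409 bp, while on V it was wider, by 560 and 456.5 bp.

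**Figure D4:**
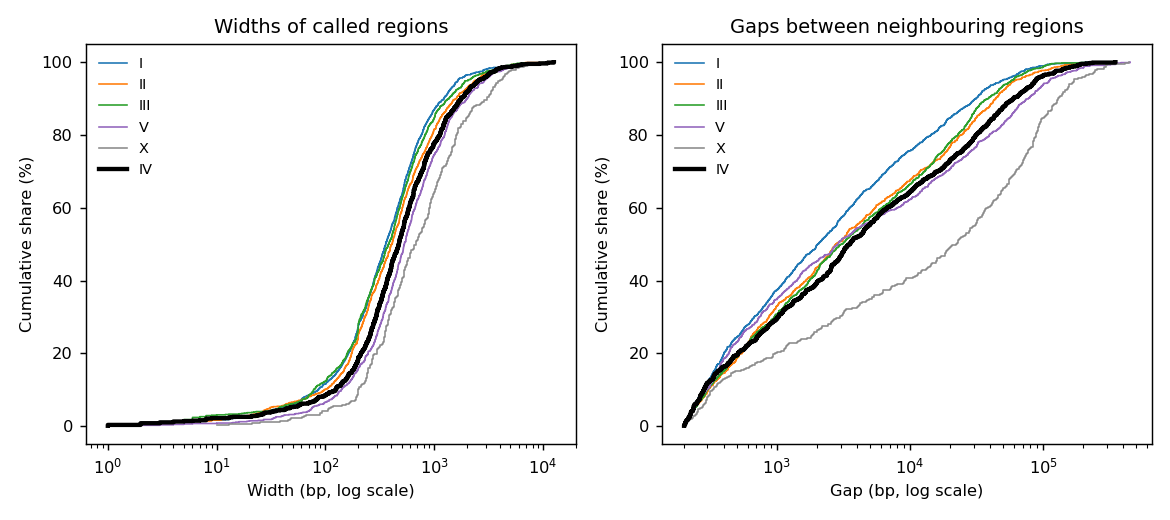
Cumulative share (%) of region widths (left panel) and of gaps between neighbouring regions (right panel), both in bp on a log scale, for each chromosome, with IV as the thick black line. By its medians IV lies between I and X in both panels, at a width of 472 bp and a gap of 3517 bp.

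The 10 regions of IV with the smallest q-values were all at least 2000 bp wide, with a median of 4532.5 bp, and together covered 61.3 kb, or 8.96% of the covered bases. At equal enrichment, more reads give a smaller q-value. Whether this accounts for the widths of the 10 was not tested. On IV the Spearman correlation of width with −log10 of the q-value was 0.63 across the 856 regions, which share libraries and are not replicates. Of the 10, 5 lay in the middle part, 4 in the right and 1 in the left. The leading region, 13026697 to 13037568 in the right part, spanned 10872 bp with a q-value of 1.33e-239. It began 235 bp after the region before it and was followed by 58224 bp without a call.

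The leading region of the middle part was more compact and stood alone. It spanned 3944 bp (7485497 to 7489440, q-value 9.04e-239), with gaps of 100805 bp to its left and 16235 bp to its right. Another solitary region of the middle part, 2064 bp at 8333074 to 8335137, had a q-value of 9.01e-185 and gaps of 25389 and 28279 bp. It was the narrowest of the 10. The widest region of the chromosome, 12568 bp at 5977101 to 5989668, had a q-value of 1.19e-180. It ended a run of closely spaced regions, and 84992 bp without a call followed it.

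The left part supplied only 1 of the 10, a 3230 bp region at 3231487 to 3234716 with a q-value of 1.27e-186. Next in the left part came a 9282 bp region at 1910855 to 1920136, the fourth widest of IV (q-value 7.13e-90), and a 2911 bp region at 3336071 to 3338981 (q-value 5.04e-61). The remaining members of the 10 were 3694 bp at 8429910 to 8433603 (q-value 7.24e-152), 2573 bp at 6645565 to 6648137 (q-value 1.79e-131) and 6177 bp at 14618444 to 14624620 (q-value 2.35e-120). The fifth widest region, 7148 bp at 5650603 to 5657750 in the left part, had a q-value of only 1.3e-51.

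The q-values on IV were close to those of the whole list. The limit of 0.001 was met by 542 of 856 regions, or 63.3%, where the whole list had 65.5%. The median q-value of 0.000207 was the second highest of the 6 chromosomes, below the 0.000382 of X. Among the 25 smallest q-values of the list 5 were on IV, and among the 100 smallest 12 were, where IV holds 15.96% of all regions. At the threshold of the list, the largest q-value on IV was 0.00994.

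Neighbouring regions on IV were separated by gaps from 200 bp to 348.7 kb. The shortest gap was 200 or 201 bp on every chromosome, so 200 bp is a lower limit of the list. Closer spacing cannot be read from it. The median gap on IV was 3517 bp, with quartiles of 729.5 and 22984.5 bp and a mean of 19507 bp. The median gap was 8024 bp among regions with a q-value of at most 0.001, and 6640 bp after regions less than 500 bp apart were merged. Only X had a longer median gap (22021 bp), and the other 4 chromosomes ranged from 2026.5 bp on I to 3063 bp on III. Gaps under 1000 bp made up 254 of 855, or 29.7%, where the whole list had 32.7%. At the other end, the longest 10% of gaps (86) held 54.9% of the sequence between regions.

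Runs of closely spaced regions were common. Joining neighbours less than 1000 bp apart gave 156 runs that took in 410 regions, or 47.9% of the chromosome's calls, and left 446 single regions. On the other chromosomes between 33.8% (X) and 56.6% (I) of regions were in runs. Most runs were pairs (106), and 11 had 5 or more regions. The share of regions in runs was 48.6% in the left part, 44.3% in the middle and 52.1% in the right. Regions in runs had a median width of 574 bp against 387 bp for single regions. A q-value of at most 0.001 was met by 68.5% of regions in runs and 58.5% of single regions, where the whole list had 65.5%.

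The longest runs differed in make-up. The run with the most members, 9 regions between 2307287 and 2314922, was a string of narrow calls (3 to 636 bp) that covered 33.1% of its 7.64 kb. A run of 8 regions between 177076 and 184234 covered 66.4% of 7.16 kb with widths from 84 to 1208 bp. The run of 7 between 11592584 and 11603849 was almost continuous, covering 83.3% of 11.3 kb, with a widest member of 3795 bp. Of the runs of 6, that between 5970401 and 5989668 held the widest region of IV and covered 92.6% of 19.3 kb, the longest extent of any run. The other, between 13385522 and 13393657, covered 66.6% of 8.14 kb, and its widest member was 1415 bp.

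**Figure D5:**
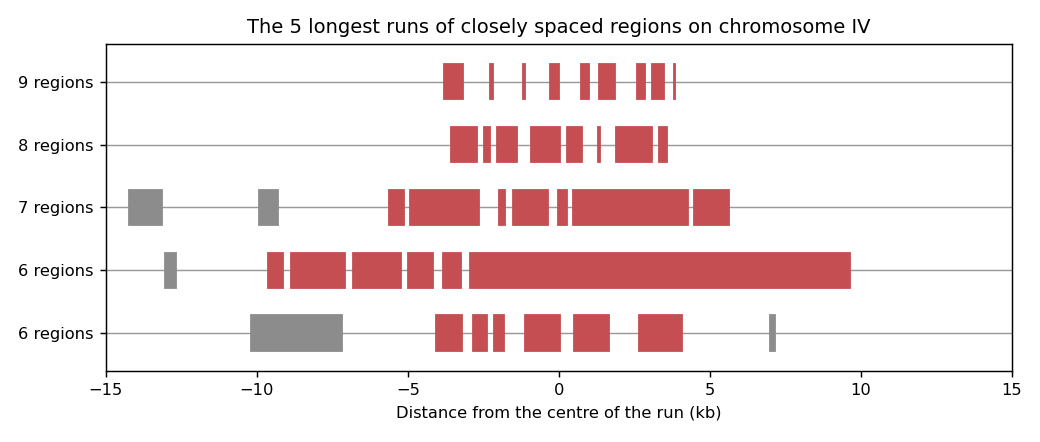
The 5 longest runs of chromosome IV by number of regions, drawn to scale around their centres (horizontal axis, distance in kb). Red boxes are regions of the run and grey boxes other regions nearby. The uppermost run is made of 9 narrow regions, while the run of 6 below the run of 7 is mostly filled by 1 region of 12568 bp.

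Dense windows lay mainly in the left and middle parts. In fixed windows of 100 kb, the fullest was 3100001 to 3200000 with 18 regions, which covered only 8.81 kb and had a median width of 203 bp. Windows at 1000001 to 1100000 and at 7900001 to 8000000 held 16 regions each and covered 6.99 and 13.4 kb. The window at 100001 to 200000 held 15. Those at 11500001 to 11600000 and 14800001 to 14900000 held 14 each and covered 15.3 and 10.8 kb. The 25 windows with 10 or more regions were 14.3% of the 175 windows and held 35.3% of the regions, with 12 in the left part, 9 in the middle and 4 in the right. The window with the most covered sequence was another, 5900001 to 6000000, with 20.9 kb in 11 regions. Dense windows were not particular to IV. The fullest window held 28 regions on I, 23 on V, 21 on III, 20 on II and 8 on X. The variance of the counts per window over their mean was 3.05 on IV, between 1.45 on X and 3.78 on V.

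Empty sequence was concentrated on the right. Of the 175 windows, 20 (11.4%) held no region: 5 of 58 in the left part, 3 of 58 in the middle and 12 of 59 in the right, where 6 of them lay beyond 15 Mb. Empty windows made up 20.1% on V and 20.9% on X, and 2.17 to 7.19% on I, II and III. The right part of IV, with 20.3% empty, was like each part of X (20.3 to 21.7%). It was below the left and right parts of V (30.4 and 27.1%). Gaps of over 100 kb numbered 49 on V, 53 on X and 12 to 22 on I, II and III. There were 31 on IV, with 8 centred in the left part, 6 in the middle and 17 in the right. Of these, 10 began beyond 15 Mb and took up 74.7% of that stretch, while those up to 15 Mb took up 20.2% of theirs.

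The longest gap, 348.7 kb from 15648573 to 15997264, ranked 8 among all gaps of the list. The next were 234.6 kb in the left part (1946272 to 2180842) and 222.8, 209.2 and 192.8 kb in the sparse stretch (15051284 to 15274102, 16171064 to 16380292 and 15274536 to 15467370). The most isolated region, 433 bp at 15274103 to 15274535 with a q-value of 0.0012, stood between 2 of them. The second most isolated, 3723 bp at 16167341 to 16171063, lay 148382 bp from its nearest neighbour and had a q-value of 1.67e-35, so isolation did not go only with weak calls. The third was the last region of the chromosome, 405 bp at 17461227 to 17461631, with 123586 bp before it. It has no neighbour on its right, so its isolation was measured on the left side only.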

How the data were processed

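RNA polymerase II ChIP-seq was done on late embryos, with 2 ChIP and 2 input libraries. Fixation in 2% formaldehyde was stopped with 100 mM Tris, per the labels' protocols, and sonicated chromatin was size-selected on a gel and sequenced on Illumina instruments. The shared protocol text speaks of serum against GFP, whereas the sample labels name the polymerase antibody. Those labels were followed. Nothing says whether replicates were separate cultures. Per the file headers, regions are on WormBase WS180, called by PeakSeq. The sources used here do not name the aligner, the caller's settings or how replicates were joined. The authors deposited 1 q-value (a corrected p-value) per region, all below 0.01.

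Widths, gaps, runs and windows were computed from 1-based starts and ends. A region belongs to the part, bin or window of its midpoint. Spans run from base 1 to the end of the last region. Most named regions follow 1 rule: the 10 smallest q-values, the 5 widest, the 5 longest gaps, fullest windows and runs, the 3 most isolated regions and the 3 smallest q-values in each part. A tie at 14 regions added a window to the 5 fullest, and the window with the most covered sequence was also named. Regions with the highest implied ratios were named among those with a larger count of at least 100. Regions beyond 15 Mb were named after their values were seen. The chromosome and the descriptions were chosen with earlier results of these data known. The functions were tested on simulated data. No sequence is shown, because no genome of the build was used here. Tools were scipy 1.17.1, pandas 2.3.3, numpy 2.4.6 and matplotlib 3.10.9 under Python 3.11.15.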

Additional observations from a re-analysis of the deposited data

How the results depend on the processing

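The alternatives for the stretch beyond 15 Mb were chosen after seeing the data. Its density ratio of 0.394 stayed below 1 in all 10 alternatives. With the start moved 1 Mb to the left it was 0.541, with the start moved 0.5 Mb to the left 0.540, and by covered bases 0.555, and the other 7 gave 0.407 to 0.509. The share of regions in the right part, 25.1%, was 29.8% by covered bases, and the other 6 alternatives gave 23.9 to 27.2%. The number of regions was 542 under the q-value limit of 0.001, and it was between 602 and 783 after merging or without regions under 100 bp. The median width of 472 bp was 642 bp at that q-value, 516 or 570.5 bp after merging gaps under 500 or 1000 bp, and 516 bp without regions under 100 bp. The median gap of 3517 bp was 8024 bp at that q-value and 6640 bp after merging gaps under 500 bp. The cause of these shifts was not tested, beyond the removal or joining of regions that defines each alternative. The fullest window held 14 to 18 regions and the share of empty windows was 10.3 to 16.6%. As to pairing, no paired analysis was possible because both replicates were joined by the authors, which also left no replicate to leave out. Library depths are unknown, so sequence without a call may still be occupied.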

Other observations

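The q-values of IV carry more than the list states. Each p-value behind them, once the rank of the region is taken out, matched a binomial upper-tail probability (success probability 0.5) of 1 pair of whole counts and of no other pair. This held for 856 of 856 regions of IV and for all 5364 of the list, within 3e-09 on the natural log scale. It required 19306 candidates in all and ranks 6 above the position in the list. PeakSeq compares ChIP tags with scaled input tags by such a tail, but no source used here states that these pairs are those tags. They are therefore called the larger and the smaller implied count, with no interval.

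On IV the larger implied counts summed to 154651 and the smaller to 72082. The median ratio per region was 2.14 (quartiles 1.81 and 2.67), against 2.23 over the list, 2.38 on I and 1.84 on X. All listed q-values are below 0.01, so a region with small counts is listed only if its ratio is high. Medians of sets that differ in width are therefore not directly comparable. On IV the lowest ratio was 2.29 among regions under 100 bp and 1.28 among those of 2000 bp or more. For regions of 500 to below 1000 bp the median was 1.98 on IV and 2.03 over the list. In that class it was 2.07 in the left part, 1.92 in the middle and 1.97 in the right.

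The regions with the highest implied ratio were not the widest. Among regions with a larger count of at least 100, the 2064 bp region at 8333074 to 8335137 led with 1264 against 203, a ratio of 6.23. The 3944 bp region at 7485497 to 7489440 followed with 1837 against 352, a ratio of 5.22. A 574 bp region at 991168 to 991741 had 199 against 39, a ratio of 5.10, with a q-value of only 1.47e-25. The widest region, at 5977101 to 5989668, had 3232 against 1315, a ratio of 2.46. For the 10872 bp region with the smallest q-value the counts were 3121 against 1027, a ratio of 3.04. Both ratios were above the IV median of 2.14. Without the limit on the larger count, the highest ratio on IV was 10.7, in a region under 100 bp.

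In regions of 500 bp or more, the median smaller count per kb was 83.4 beyond 15 Mb (30 regions) and 105.9 before it (374 regions). The larger count per kb was also lower there, at 166 against 203. Only called regions enter these medians, so sequence without a call is not described by them. The sets also differ in width: 8 of the 30 regions beyond 15 Mb and 62 of the 374 before it were of 2000 bp or more. Any part of these differences in the low number of regions beyond 15 Mb was not tested.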
